A study of Chlamydomonas reinhardtii with 15 samples.

Results

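The transcripts described here stood higher after tBOOH, DBMIB and 2(E)-hexenal than in untreated cells of the green alga Chlamydomonas reinhardtii, and stayed near the untreated level after neutral red. They were chosen on the measured values themselves. For each of 16283 probes, the mean of the 3 untreated arrays was subtracted from the mean of the 3 arrays of each chemical, on the log2 scale that the authors deposited. A probe was taken where this difference was at least 1.5 for tBOOH, DBMIB and Hexenal, lay between -0.7 and 0.7 for neutral red, and came with a mean of 6 or more in at least 1 treated group. The rule took 73 probes (0.448% of all), of which 67 were of the array's specific class and 6 of its cross-hybridising class, whose signal may come from more than 1 transcript. No 2 of these probes shared a transcript number or locus tag. They are called members of the set.

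The strain was the wild type 4A+ in the 137c background, grown with acetate in the light at 25 °C, and every culture was kept for 2 h in 20 ml before RNA was isolated. The tested groups received tert-butylhydroperoxide (tBOOH, 100 µM), DBMIB (2 µM), 2(E)-hexenal (Hexenal, 0.3 mM) or neutral red (NR, 3 µM), and the control group received no chemical. Each group had 3 cultures, which the study calls independent biological replicates, and each culture was hybridised to its own 1-colour array. The molar doses of the chemicals differ, so their values are set side by side and their sizes are not read as a difference in potency.

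As background, tBOOH is an organic hydroperoxide that cells reduce with thiol-dependent and glutathione-dependent peroxidases. DBMIB is a halogenated quinone that blocks electron transfer at the chloroplast cytochrome b6f complex and can also react with thiols, and 2(E)-hexenal is a plant leaf aldehyde whose conjugated double bond reacts with thiols in the same manner. Neutral red is a dye that produces singlet oxygen in the light, a reactive oxygen species that in this alga is known to raise its own group of genes. The array names transcripts only by number, so members are given by the locus tag of the version 5.5 assembly where their number matched one (32 members) and otherwise by their JGI transcript number (41 members). The sources used here give no product name for any of them, so no function is stated. As RNA is measured over a whole culture, more transcript per cell and more cells with the transcript cannot be told apart.

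By the scanner software's test, the share of probes well above background on the 12 treated arrays ran from 72.7% (DBMIB replicate 2) to 89.8% (NR replicate 2), and 0 spots were saturated. Correlations between arrays of 1 group lay between 0.983 and 0.995 over all probes. Background flags for the untreated cultures were not used here, so whether a member was above background in control is judged only by its level. Of treated values under 3, 0.885% were well above background, against 39.6% of those from 3 to 4 and 86.6% of those from 4 to 5.

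The set is a small remainder of a broad shared response. Of 587 probes that met the rule's conditions for tBOOH, DBMIB and Hexenal and for level, 361 (61.5%) also differed from control by at least 1.5 in NR, and 148 (25.2%) stood between 0.7 and 1.5 there. The 73 members are the 12.4% inside the window, and 5 probes (0.852%) lay below it. The median NR difference of the 587 probes was 1.84. The histogram of NR differences shows no gap at the edge of the window, so the set is the low tail of a continuous range. All 4 differences share the same 3 control arrays.

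**Figure D1:**
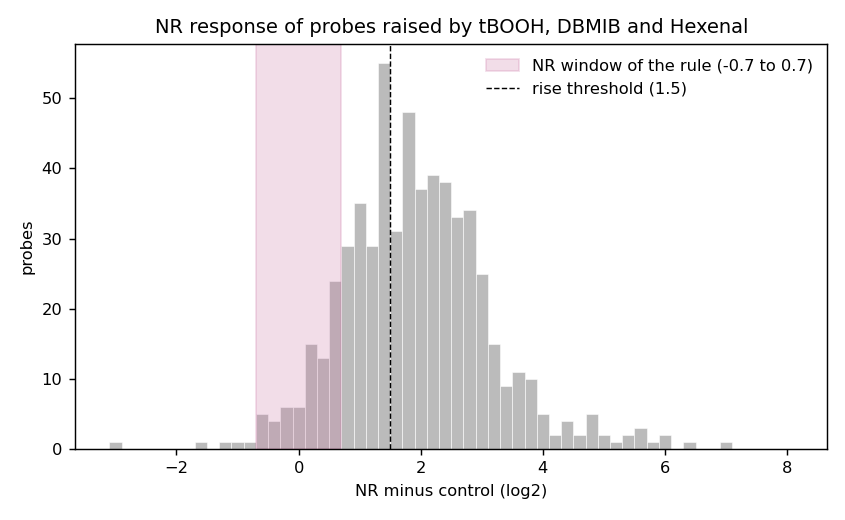
Number of probes (vertical axis) by their NR minus control difference in log2 units (horizontal axis), for the 587 probes at least 1.5 above control in tBOOH, DBMIB and Hexenal. The shaded band from -0.7 to 0.7 holds the 73 members, and the dashed line at 1.5 marks the threshold used for the other chemicals, beyond which 361 probes lie.

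The members' NR differences ran from -0.58 to 0.69 with a median of 0.35, and 55 members (75.3%) stood above 0, against 50.7% of the 10043 probes in the same window. NR arrays overlapped control arrays in 57 members (45.8% of all probes did so), lay wholly above them in 13 (28.9% of all probes) and wholly below them in 3 (25.4%). These values are those the rule selected on and share their control arrays with the other differences, so nothing is read from them. The nearest members inside an edge were CHLRE_06g294200v5, transcript 409157 and CHLRE_07g327450v5, whose NR differences were 0.69, 0.68 and 0.68, with NR arrays that overlapped control in each. The nearest probes outside were CHLRE_16g662951v5, 1.49 above control in tBOOH, transcript 402157, 0.71 above control in NR, and transcript 184415. The last of these was 1.48 above control in tBOOH but 8.48 in DBMIB and 5.72 in Hexenal, with -0.01 in NR, so it missed the set by its tBOOH value alone.

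Against control, the members' differences were 1.52 to 5.09 in tBOOH (median 2.31, a 4.95-fold level), 1.59 to 9.35 in DBMIB (median 2.91, 7.53-fold) and 1.54 to 8.43 in Hexenal (median 2.78, 6.88-fold). Over all probes the medians were 0.10, 0.06 and 0.13 in the same order, and a difference of at least 1.5 was held by 11.9% of probes in tBOOH, 12.4% in DBMIB and 10.6% in Hexenal. The rule fixed these values, so they are given as a description with no test. Every tBOOH array lay above every control array in 72 members (35.0% of all probes), and the same held for DBMIB in 73 (31.4%) and for Hexenal in 73 (35.9%). All 9 arrays of these chemicals lay above all 6 NR and control arrays in 69 members (5.64% of all probes). The 4 exceptions were CHLRE_13g577300v5, CHLRE_07g353750v5, transcript 295604 and transcript 415372.

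**Figure D2:**
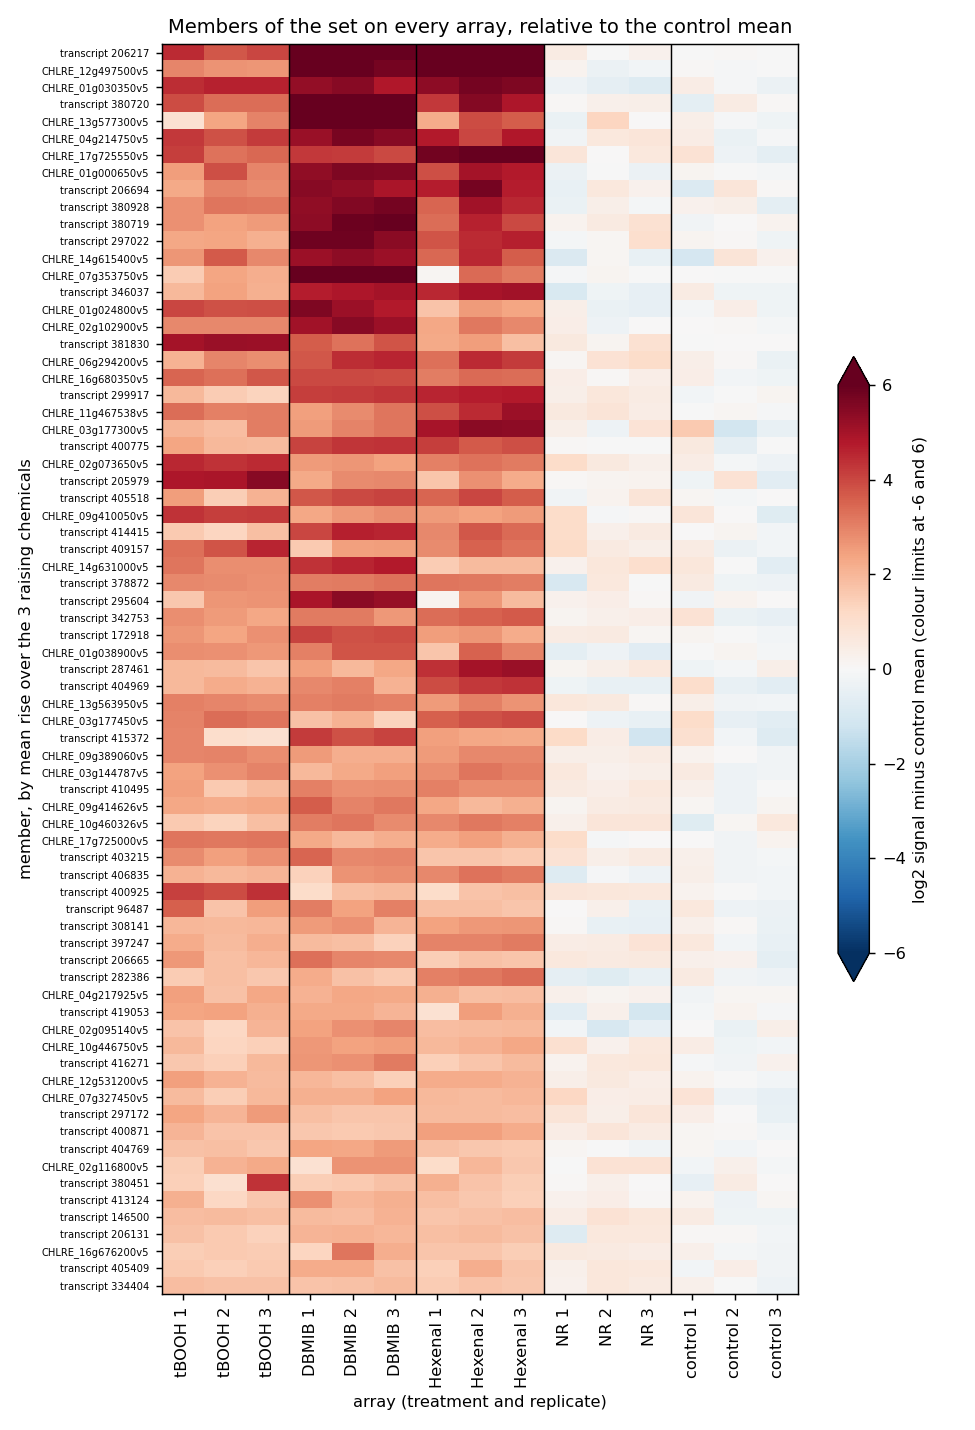
Each row is a member and each column an array, coloured by its log2 signal minus the member's control mean, with rows ordered by the mean rise over tBOOH, DBMIB and Hexenal. The 9 arrays of those chemicals are red in nearly every row, and the NR arrays are pale, as the control arrays are. The red cell far above its group near the foot of the tBOOH 3 column is transcript 380451.

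The largest difference of a member fell in DBMIB for 43 members, in Hexenal for 19 and in tBOOH for 11, and the smallest fell in tBOOH for 39. In the 361 probes that all 4 chemicals raised, the largest of the same 3 differences fell in DBMIB for 30.5%, in Hexenal for 37.7% and in tBOOH for 31.9%. The smallest fell in tBOOH for 45.2% of those probes, against 53.4% of the members. Both sets were chosen on these differences, so this contrast was not tested. It moved with the scaling. With the deposited, already normalized values further centred on spike-in RNA, the largest difference fell in DBMIB for 30 members, in Hexenal for 25 and in tBOOH for 18.

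In untreated cells the members spanned nearly the whole range of the array, with mean control levels of 1.33 to 15.44. Their median was 6.07, at the 39.5th percentile of all probes, against medians of 9.004 in tBOOH, 9.71 in DBMIB, 9.49 in Hexenal and 6.17 in NR. Mean control levels were under 3 in 10 members, from 3 to 4 in 8, from 4 to 5 in 10, from 5 to 6 in 8, and at 6 or more in 37. On all 3 NR arrays 58 members were well above background, 6 were so on 2 arrays and 9 on none. In those 9 members the NR means (1.40 to 2.93) and the control means (1.33 to 2.79) both lie where few values pass the background test, so a small change under NR would not be seen there.

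Transcript 206217 reached the highest group mean of the set, in Hexenal, and had the largest mean difference over the 3 chemicals. Its deposited log2 signal was 13.82, 13.08 and 13.38 in tBOOH, 16.59, 16.67 and 16.27 in DBMIB, 17.88, 17.68 and 17.82 in Hexenal, 9.84, 9.32 and 9.61 in NR, and 9.35, 9.42 and 9.32 in control. The groups of the 3 chemicals overlapped neither each other nor NR and control, while NR and control overlapped. These levels correspond to 16.8-fold (tBOOH), 142-fold (DBMIB) and 346-fold (Hexenal) the control level, and NR stood at 1.17-fold.

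CHLRE_12g497500v5 had the same order at a lower level, measured by 1 spot of the cross-hybridising class. Its log2 signal was 9.37, 9.15 and 9.11 in tBOOH, 12.52, 12.69 and 12.20 in DBMIB, 13.63, 13.92 and 13.88 in Hexenal, 6.65, 6.08 and 6.30 in NR, and 6.51, 6.39 and 6.43 in control. Again the 3 chemicals separated fully from each other, and the NR arrays straddled the control arrays. The Hexenal mean was 165-fold the control level.

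CHLRE_01g030350v5 was among the most even of the strong members. It read 11.04, 11.26 and 11.25 in tBOOH, 11.89, 12.08 and 11.43 in DBMIB, 12, 12.35 and 12.21 in Hexenal, 6.30, 6.11 and 5.87 in NR, and 7.08, 6.54 and 6.25 in control. Its differences from control were 4.56 in tBOOH, 5.18 in DBMIB and 5.56 in Hexenal, and -0.53 in NR, with the NR and control arrays overlapping at the edge.

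CHLRE_13g577300v5 had the largest single difference of the set. It read 2.65, 4.08 and 4.67 in tBOOH, 10.50, 11.17 and 11.51 in DBMIB, 3.93, 5.62 and 5.33 in Hexenal, 1.31, 2.98 and 1.73 in NR, and 2.05, 1.63 and 1.44 in control. Only the DBMIB arrays stood far from the rest, and the lowest tBOOH array lay below the highest NR array. The DBMIB difference of 9.35 sets a mean of 11.06 against a control mean of 1.71, a level at which signal is seldom above background, so its fold is nominal.

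At the other end of the scale, 3 members were already abundant in untreated cells. Transcript 206131 read 17.22, 16.99 and 16.81 in tBOOH, 17.47, 17.51 and 17.42 in DBMIB, 17.27, 17.35 and 17.18 in Hexenal, 14.67, 16.08 and 16.08 in NR, and 15.53, 15.53 and 15.27 in control. Its NR arrays fell on both sides of the control arrays, and their mean difference of 0.17 hides a spread of 0.81 (SD, n = 3). CHLRE_04g217925v5, of the cross-hybridising class, had means of 16.96 in tBOOH, 17.01 in DBMIB, 16.70 in Hexenal, 15.03 in NR and 14.78 in control. CHLRE_02g095140v5 had means of 14.46 in tBOOH, 15.48 in DBMIB, 14.72 in Hexenal, 12.27 in NR and 12.80 in control. Differences of 1.56 to 2.68 in these 3 members raised signals that were already among the strongest on the array.

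**Figure D3:**
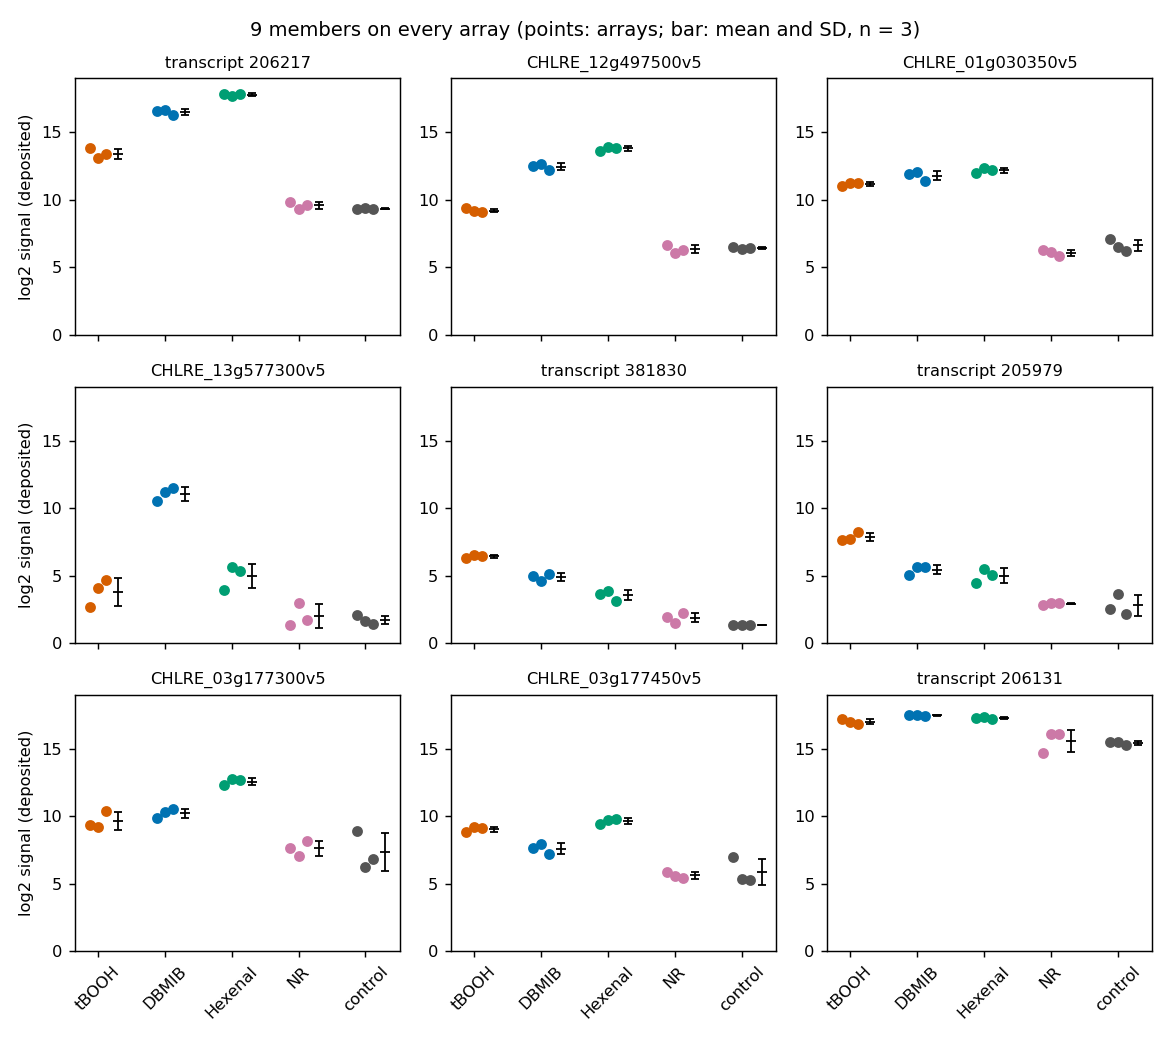
Deposited log2 signal (vertical axis) of 9 members in each group (horizontal axis), with 1 point per array and a bar for the mean and SD (n = 3). NR sits beside control in every panel, while the order of tBOOH, DBMIB and Hexenal changes from panel to panel, with Hexenal highest for transcript 206217, DBMIB for CHLRE_13g577300v5 and tBOOH for transcript 205979.

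The rule sets no direct limit on the differences between tBOOH, DBMIB and Hexenal, and the control arrays do not enter those comparisons. Its floor of 1.5 in each of the 3 does bear on them. A probe that rose less in 1 chemical was left out, as transcript 184415 was by its tBOOH value. The shares given for all probes have no such floor. The rule's minimum mean of 6 bears on the differences too, since 12 members reached it in only 1 of the 3 chemicals and 7 in 2 of them. A member admitted through 1 chemical is bound to be highest there, so its differences are given without a test, and counts are also given for the 54 members that reached 6 in all 3 chemicals. Which of the 3 chemicals gave the higher level was tested, in 3 pairs, with limma on scanner signals of the 12 treated arrays and adjusted p under 0.05 over all probes. The p-values measure the spread between the 3 cultures of each group. On this scale the differences are log2 of the scanner's processed signal after centring each array, and the median over all probes was -0.14 for Hexenal against tBOOH, 0.07 for DBMIB against tBOOH and -0.20 for Hexenal against DBMIB.

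Hexenal and tBOOH differed in 41 of 73 members (46.1% of all probes were called), with 29 higher in Hexenal (19.2% of all probes) and 12 lower (27.0%). DBMIB and tBOOH differed in 47 members (50.1% of all probes), with 36 higher in DBMIB (25.0%) and 11 lower (25.1%). Hexenal and DBMIB differed in 42 members (42.1% of all probes), with 15 higher in Hexenal (17.0%) and 27 lower (25.1%). The members' median differences were 0.32, 0.62 and -0.35 in the order of these comparisons. The share called was thus near or somewhat above that of all probes in each pair, and the counts leaned towards DBMIB and away from tBOOH. They include members under the minimum level in some of the chemicals, whose direction the rule partly set. This lean is therefore a description and not a test result, and members at the minimum level throughout are counted separately below. In the deposited values further centred on spike-in RNA, the members' median differences were 0.16, 0.24 and -0.02 in the same order. The lean from Hexenal towards DBMIB was thus close to 0 there.

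Among the 54 members with means of at least 6 in all 3 chemicals, 29 were called for Hexenal against tBOOH (51.0% of the 8853 probes at such levels), 33 for DBMIB against tBOOH (54.2%) and 28 for Hexenal against DBMIB (44.1%). For Hexenal against tBOOH 23 were higher (22.8% of those probes) and 6 lower (28.3%), and for DBMIB against tBOOH 26 were higher (24.5%) and 7 lower (29.7%). Hexenal against DBMIB split into 13 higher (21.6%) and 15 lower (22.5%), so the lean away from tBOOH was seen here too, while that towards DBMIB over Hexenal was not.

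Taking the 3 pairs jointly, 22 members were higher in DBMIB than in both others (12.9% of all probes were), 12 were higher in Hexenal than in both others (7.81%) and 8 were higher in tBOOH than in both others (16.9%). These include members under the minimum level in some of the 3 chemicals, whose direction the rule partly set. Among the 54 members at 6 or more in all 3 chemicals these counts were 13 (11.1% of probes at such levels), 10 (9.94%) and 4 (19.2%) in the same order. DBMIB and Hexenal both exceeded tBOOH in 18 members (12.8% of all probes), a count that overlaps those above. Hexenal was below both others in 6 members (10.4%) and DBMIB below both others in 4 (9.06%). In 13 members no pair was called (31.5% of all probes), with fitted differences from -0.87 to 0.81 and 95% confidence intervals that reach from -1.72 to 1.66.

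**Figure D4:**
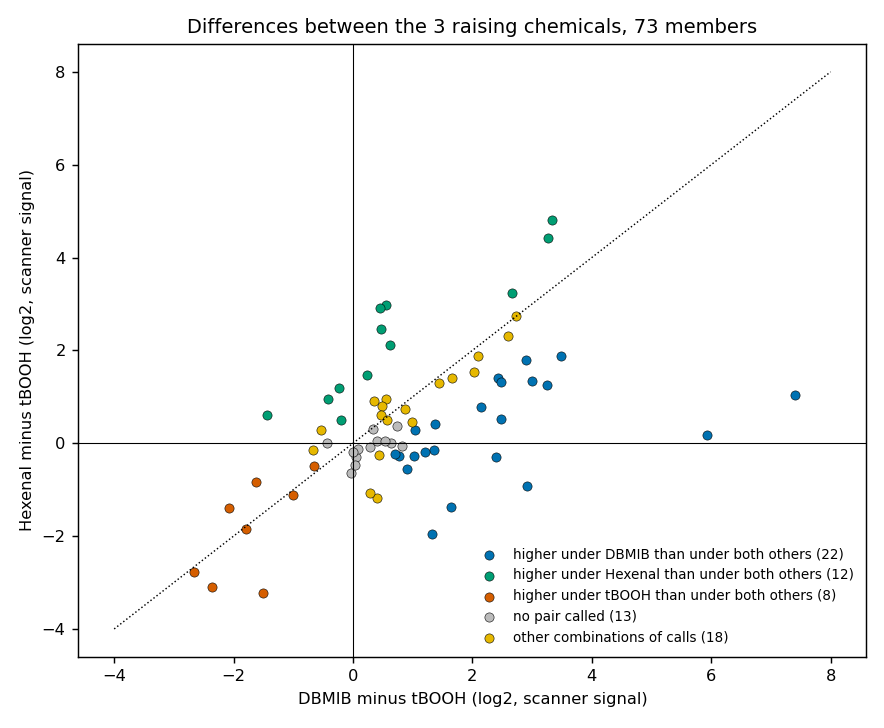
Each point is a member, placed by its DBMIB minus tBOOH difference (horizontal axis) and its Hexenal minus tBOOH difference (vertical axis), both in log2 units of scanner signal, and coloured by which chemical exceeded both others in the limma test. The dotted line marks equal levels in Hexenal and DBMIB. The 22 members higher in DBMIB lie below it on the right, and the 12 higher in Hexenal lie above it. The 8 higher in tBOOH lie at the lower left. These counts include members under the minimum level in some of the chemicals, whose direction the rule partly set and whose colour is no test result. Among members at that level in all of the chemicals shown, the counts are 13, 10 and 4 in the same order.

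Among the 22 members highest in DBMIB, the separation was widest for CHLRE_13g577300v5, whose values are given above. It reached the minimum level in DBMIB alone, so with no test its DBMIB signal was 7.41 above tBOOH and Hexenal stood at -6.37 against DBMIB (log2, scanner scale). It was well above background on 3 of 3 DBMIB arrays but on 2 of 3 tBOOH and 2 of 3 Hexenal arrays, and without tBOOH replicate 1 the DBMIB against tBOOH difference was 6.74.

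CHLRE_07g353750v5, 1 spot of the cross-hybridising class, came next. It read 2.89, 3.73 and 3.55 in tBOOH, 8.73, 9.27 and 9.46 in DBMIB, 1.48, 4.79 and 4.49 in Hexenal, 1.32, 1.53 and 1.36 in NR, and 1.42, 1.35 and 1.37 in control on the deposited scale. Only DBMIB was clearly apart, and Hexenal replicate 1 lay among the control and NR values. It too reached the minimum level in DBMIB alone. With no test, DBMIB stood 5.92 above tBOOH on the scanner scale and Hexenal at -5.74 against DBMIB, or -4.84 without Hexenal replicate 1. Its Hexenal difference from control was 2.21, and 3.26 without that array.

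Transcript 295604 showed the same low Hexenal replicate 1. It read 6.87, 7.91 and 7.96 in tBOOH, 10.15, 10.68 and 10.50 in DBMIB, 5.48, 7.87 and 7.15 in Hexenal, 5.53, 5.63 and 5.33 in NR, and 5.04, 5.47 and 5.27 in control. The DBMIB arrays did not overlap any other group, and Hexenal replicate 1 lay within the range of NR. Hexenal stood at -3.84 ± 0.49 against DBMIB on the scanner scale (limma adjusted p = 4.84e-05), or -3.15 without that array.

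Transcripts 380720 and 380719 carry consecutive numbers and had like patterns at different levels (transcript 380719 was picked out for this after its values were seen). Transcript 380720 read 8.61, 8.08 and 8.08 in tBOOH, 10.94, 11.15 and 11.52 in DBMIB, 8.93, 10.23 and 9.57 in Hexenal, 4.75, 5.02 and 5.06 in NR, and 4.12, 5.20 and 4.79 in control. Transcript 380719 read 5.86, 5.53 and 5.66 in tBOOH, 8.49, 8.99 and 9.15 in DBMIB, 6.48, 7.73 and 7.08 in Hexenal, 3.31, 3.66 and 4.03 in NR, and 2.90, 3.14 and 3.31 in control. In both, DBMIB was highest and Hexenal lay between DBMIB and tBOOH. DBMIB exceeded tBOOH by 3.00 ± 0.31 in transcript 380720 (log2, SE, limma adjusted p = 4.82e-06). In transcript 380719, whose tBOOH mean was under the minimum level, the difference was 3.25, given with no test.

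Transcript 297022, 1 spot of the cross-hybridising class, followed the same order, with means of 5.35 in tBOOH, 8.76 in DBMIB, 7.37 in Hexenal, 3.42 in NR and 3.07 in control. In transcript 206694 DBMIB and Hexenal likewise both exceeded tBOOH, by 2.59 ± 0.36 and 2.31 ± 0.36 (log2, SE). It differed in that Hexenal and DBMIB were not told apart, with a difference of -0.28 and a 95% confidence interval of -1.06 to 0.51. It is thus not among the 22 members. CHLRE_04g214750v5, CHLRE_01g000650v5 and transcript 380928 were also called highest in DBMIB, with Hexenal against DBMIB differences of -0.95, -1.01 and -1.16. Leaving out 1 array could end that call in each of these 3. The difference was nearest 0 at -0.68 in CHLRE_04g214750v5 without Hexenal replicate 2 (limma adjusted p = 0.11), at -0.65 in CHLRE_01g000650v5 without Hexenal replicate 1 (limma adjusted p = 0.14) and at -0.69 in transcript 380928 without Hexenal replicate 1 (limma adjusted p = 0.073). The call also ended without DBMIB replicate 3 in all 3, and without DBMIB replicate 2 in CHLRE_04g214750v5 and CHLRE_01g000650v5.

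The 12 members highest in Hexenal began with the pair described above. Transcript 206217 was higher in Hexenal than in tBOOH by 4.43 ± 0.20 (log2, SE, limma adjusted p = 7.09e-09) and higher in Hexenal than in DBMIB by 1.17 ± 0.20 (limma adjusted p = 0.000506). CHLRE_12g497500v5 had differences of 4.82 ± 0.19 and 1.49 ± 0.19 in the same comparisons (limma adjusted p = 2.92e-09 and 6.20e-05). In both, no array of 1 chemical overlapped an array of another.

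Transcript 299917 joined Hexenal and DBMIB at a high level with tBOOH far behind. It read 10.85, 10.43 and 10.21 in tBOOH, 13.04, 13.08 and 13.20 in DBMIB, 13.45, 13.62 and 13.64 in Hexenal, 9.26, 9.57 and 9.36 in NR, and 8.74, 8.86 and 9.07 in control. All 5 groups were separate, NR included, whose arrays lay wholly above control. Hexenal exceeded tBOOH by 3.23 ± 0.19 (log2, SE, limma adjusted p = 4.48e-08), whereas its 0.57 over DBMIB was not called without DBMIB replicate 1 or 2 or Hexenal replicate 2 or 3 (0.51 to 0.55, adjusted p up to 0.089).

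CHLRE_17g725550v5 and transcript 287461 stood higher in Hexenal than in both others, while DBMIB and tBOOH were not told apart. CHLRE_17g725550v5 read 11.02, 10.13 and 10.31 in tBOOH, 11.12, 11.04 and 10.84 in DBMIB, 12.63, 13.02 and 13.00 in Hexenal, 7.61, 6.87 and 7.48 in NR, and 7.74, 6.56 and 6.28 in control. Transcript 287461 read 3.88, 3.84 and 3.64 in tBOOH, 4.42, 3.90 and 4.26 in DBMIB, 6.33, 6.93 and 7.12 in Hexenal, 2.14, 2.32 and 2.57 in NR, and 1.72, 1.84 and 2.32 in control. The Hexenal arrays lay above all others in both. Hexenal exceeded DBMIB by 1.98 ± 0.27 in CHLRE_17g725550v5 (log2, SE, limma adjusted p = 8.94e-05). Transcript 287461 reached the minimum level in Hexenal alone, and its difference of 2.45 is given with no test. The DBMIB against tBOOH intervals were -0.12 to 1.06 and -0.20 to 1.12, so DBMIB may stand about 1 log2 unit above tBOOH there.

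A pair of Hexenal-high members sit close together on chromosome 3, CHLRE_03g177300v5 and CHLRE_03g177450v5, with 2 loci between them in the order of the version 5.5 assembly. CHLRE_03g177300v5 read 9.38, 9.19 and 10.40 in tBOOH, 9.89, 10.28 and 10.55 in DBMIB, 12.29, 12.73 and 12.68 in Hexenal, 7.68, 7.03 and 8.15 in NR, and 8.90, 6.21 and 6.87 in control. CHLRE_03g177450v5 read 8.82, 9.20 and 9.10 in tBOOH, 7.64, 7.97 and 7.21 in DBMIB, 9.44, 9.71 and 9.81 in Hexenal, 5.87, 5.56 and 5.42 in NR, and 6.98, 5.38 and 5.25 in control. In both, Hexenal was highest and control replicate 1 stood well above the other control arrays. They differed in the place of DBMIB, which in CHLRE_03g177450v5 stood at -1.44 ± 0.20 against tBOOH (log2, SE, limma adjusted p = 6.03e-05) and in CHLRE_03g177300v5 at 0.55 ± 0.35 (limma adjusted p = 0.21).

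Hexenal exceeded DBMIB by 2.42 ± 0.35 in CHLRE_03g177300v5 and by 2.05 ± 0.20 in CHLRE_03g177450v5 (log2, SE, limma adjusted p = 0.00013 and 7.17e-06). Without control replicate 1 the NR difference of CHLRE_03g177300v5 was 1.08 instead of 0.29, so that its place in the set rests on that array. Hexenal against tBOOH in CHLRE_03g177450v5, at 0.62, was not called without tBOOH replicate 1 or Hexenal replicate 2 or 3 (0.51 to 0.60, adjusted p up to 0.090). The loci between the pair moved otherwise, with CHLRE_03g177350v5 at -2.40 in tBOOH, -3.56 in DBMIB, -2.46 in Hexenal and -2.12 in NR against control, and CHLRE_03g177400v5 at 3.14, 0.19, 0.71 and 1.496 in that order.

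The 8 members highest in tBOOH included 2 that were well above background on no NR array. Transcript 381830 read 6.31, 6.51 and 6.45 in tBOOH, 4.98, 4.58 and 5.11 in DBMIB, 3.60, 3.85 and 3.12 in Hexenal, 1.92, 1.52 and 2.23 in NR, and 1.30, 1.34 and 1.36 in control. Its 5 groups followed each other without overlap. No Hexenal array held it well above background, and it reached the minimum level in tBOOH alone. Its Hexenal against tBOOH difference of -3.23 on the scanner scale is given with no test and no fold, since the Hexenal level is not resolved.

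Transcript 205979 read 7.63, 7.70 and 8.24 in tBOOH, 5.04, 5.62 and 5.66 in DBMIB, 4.45, 5.52 and 5.04 in Hexenal, 2.85, 2.93 and 2.99 in NR, and 2.54, 3.66 and 2.16 in control. The tBOOH arrays stood apart, and DBMIB and Hexenal overlapped. It also reached the minimum level in tBOOH alone, and with no test Hexenal stood at -3.11 and DBMIB at -2.37 against tBOOH (log2, scanner scale).

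CHLRE_02g073650v5 showed the tBOOH order at a high level. It read 14.71, 14.54 and 14.68 in tBOOH, 12.74, 12.81 and 12.60 in DBMIB, 13.20, 13.44 and 13.28 in Hexenal, 11.28, 10.75 and 10.47 in NR, and 10.63, 10.06 and 9.87 in control. The 3 chemicals did not overlap each other, and the NR arrays overlapped control. DBMIB stood at -2.07 ± 0.20 and Hexenal at -1.39 ± 0.20 against tBOOH (log2, SE, limma adjusted p = 2.06e-06 and 6.77e-05).

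Transcript 400925, 1 spot of the cross-hybridising class, read 12.13, 11.93 and 12.39 in tBOOH, 9.14, 9.82 and 9.92 in DBMIB, 9.10, 9.75 and 9.82 in Hexenal, 8.73, 8.68 and 8.65 in NR, and 8.21, 8.002 and 7.84 in control. The tBOOH arrays were far above the rest, and the NR arrays were all above control. DBMIB stood at -2.66 ± 0.25 and Hexenal at -2.77 ± 0.25 against tBOOH (log2, SE, limma adjusted p = 1.84e-06 and 1.58e-06). It lies close to several edges of the rule, with 1.61 in DBMIB, 1.54 in Hexenal and 0.67 in NR, and met the rule in 10 of the 15 repeats that left out 1 array. Transcript 409157 was also called highest in tBOOH, but its Hexenal against tBOOH difference of -0.83 had an adjusted p of 0.049 and lost its call in 9 of the 12 repeats that left out 1 array, at -0.49 without tBOOH replicate 3 (limma adjusted p = 0.22).

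The 13 members with no called pair included transcript 206131, CHLRE_04g217925v5 and CHLRE_07g327450v5. CHLRE_07g327450v5 read 12.87, 12.48 and 12.92 in tBOOH, 13.12, 13.12 and 13.43 in DBMIB, 12.92, 12.90 and 12.99 in Hexenal, 12.22, 11.37 and 11.43 in NR, and 11.80, 10.67 and 10.51 in control. The 3 chemicals gave levels within about 1 log2 unit of each other, and NR overlapped control. Its Hexenal against tBOOH difference was 0.05, with a 95% confidence interval of -0.43 to 0.53.

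The size of the differences in dim members depended on the background correction, while their direction did not in the comparisons listed next. With normexp background correction and an offset of 50, which holds dim signals together, Hexenal against DBMIB was -4.52 in CHLRE_13g577300v5, -2.97 in CHLRE_07g353750v5, -2.97 in transcript 295604 and 0.66 in transcript 287461. DBMIB against tBOOH was 3.13 in CHLRE_07g353750v5, 2.41 in transcript 297022 and 1.95 in transcript 206694. Hexenal against tBOOH was -0.94 in transcript 381830 and -1.60 in transcript 205979. DBMIB against tBOOH in transcript 287461, at 0.43, was called with this correction and not in the reported fit. That transcript was under the minimum level in both chemicals, so nothing is read from this call.

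The tBOOH difference of transcript 380451 rests on 1 array, and the member was picked out for this after its values were seen. It read 6.29, 5.83 and 9.23 in tBOOH, 6.35, 6.44 and 6.61 in DBMIB, 7.005, 6.58 and 6.37 in Hexenal, 4.95, 5.19 and 4.91 in NR, and 4.38, 5.35 and 4.87 in control. On the scanner scale tBOOH replicate 3 was at -0.07 with all spots and at -3.54 without the spot that the scanner software flags as an outlier, against -3.08 and -3.56 in replicates 1 and 2. Without that array the deposited tBOOH difference was 1.19 instead of 2.25, below the rule's threshold. In the reported fit, which leaves out the flagged spot, the transcript was called higher in DBMIB than in tBOOH. Its deposited means went the other way, with 7.12 in tBOOH and 6.46 in DBMIB, so that call rests on the flag. No other of the 876 member values on treated arrays moved by more than 0.21 when flagged spots were left out.

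The named loci were spread over the genome, with 1 to 4 members on each of 14 chromosomes. Of the 50 probed loci within 2 loci of a member none was a member, and 1, CHLRE_12g531100v5, was at least 1.5 above control in tBOOH, DBMIB and Hexenal, with 3.06 in NR. CHLRE_17g725000v5 and CHLRE_17g725550v5 had 11 loci between them, the next closest pair of members. CHLRE_17g725000v5 was highest in tBOOH and CHLRE_17g725550v5 in Hexenal. The former reached the minimum level in tBOOH alone, so its order is given with no test.

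The scaling of the arrays bears on the size of all differences. Centring the deposited, already normalized values further on 7 control features for spike-in RNA moved every difference by -0.18 in tBOOH, -0.54 in DBMIB, -0.28 in Hexenal and -0.15 in NR. All 73 members stayed above control in tBOOH, DBMIB and Hexenal, and 61, 62 and 59 of them kept a difference of at least 1.5 in that order. The median member differences were then 2.13, 2.37 and 2.504, with Hexenal ahead of DBMIB. In NR, 50 of the 73 members then stood above 0. The spike-in mean of control replicate 1 was -0.57 from that of all arrays, against -0.10 and -0.02 in control replicates 2 and 3. Among tBOOH arrays these values ran from -0.43 to 0.18. Without control replicate 1 the differences moved by -0.07 in tBOOH, -0.43 in DBMIB, -0.17 in Hexenal and -0.04 in NR. In that case 58 members stood above 0 in NR.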

How the data were processed

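Total RNA of 15 Chlamydomonas cultures was hybridised to 1-colour arrays. The log2 values that the authors deposited for all 15 arrays gave the members and every level. Their sorted columns are the same within 0.01 and each median is 6.953, so they were read as quantile-normalized, with probe spots averaged. The comparisons between chemicals used the scanner intensity of each spot on the 12 treated arrays, which the software had already corrected for background per the file headers (the processed signal) and which was not normalized between arrays. The scanner software's flags for outlier and dim spots were used as deposited. No source used here gives the software's version.

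Log2 intensities were centred on each array's 75th percentile, and spots flagged as outliers (1.47% to 1.78% per array) were left out unless all spots of a probe were flagged. limma 3.58.1 in R 4.3.3 (lmFit, eBayes, Benjamini-Hochberg over 16283 probes, 4 treated groups in 1 fit, two-sided adjusted p under 0.05) tested the 3 pairs, without a filter on dim probes. The fit was tested on simulated data. A probe counted as well above background where at least 0.5 of its spots were. No test was made against control or NR, on which the members were chosen. The replicate numbers were taken to pair the cultures of tBOOH, DBMIB and Hexenal, as the deviations from the group means correlated at 0.10 to 0.27 in all 9 same-numbered pairs of arrays, against -0.24 to 0.03 in 18 other-numbered ones. The pairing comes from the numbers in the labels and this check alone. The reported fit did not use it, and it entered only a repeat with a replicate block.

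Named members are the 10 with the largest mean difference over tBOOH, DBMIB and Hexenal, the 3 largest called differences in each direction of each pair, the 3 nearest probes on each side of the rule's thresholds, and the 3 highest in control. The members and lists were chosen with earlier results of these data known. Lists of genes by product name could not be counted, since no product names were given. Of 7899 transcript numbers under 200000, 86.8% matched a locus tag in the RefSeq table of the version 5.5 assembly, against 18.5% when shifted by 1, and higher numbers (3.05% against 2.92%) were left unnamed. Control features were kept out of the tests and served only for spike-in centring.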

Additional observations from a re-analysis of the deposited data

How the results depend on the processing

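The number of members depends on the rule's thresholds. It was 234 with differences of at least 1.0 and 39 with at least 2.0, and 44 with an NR window of 0.5 and 114 with one of 1. It was 83 with no minimum level, 52 with a minimum of 8, 78 with medians of 3 arrays (57 of them among the 73) and 61 with spike-in centring (43 among the 73). Leaving out each array in turn gave 70 to 78 members, but not the same ones: 34 of the 73 met the rule in all 15 repeats, and without control replicate 1 the 78 members included 51 of the 73.

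Counts of members called moved little, apart from the calls lower among the 54 members given below. Leaving out 1 array gave 34 to 42 for Hexenal against tBOOH (25 to 29 higher, 9 to 13 lower), 42 to 50 for DBMIB against tBOOH (32 to 39 higher, 10 to 12 lower) and 36 to 45 for Hexenal against DBMIB (12 to 16 higher, 22 to 30 lower). Quantile normalization, the deposited values, all spots, a filter on dim probes, only the compared groups and a trended, robust spread all stayed within 1.5 times of the reported counts. Normexp background correction on median signals, chosen after seeing the data, gave 41, 54 and 50 calls in that order. Only the 54 members at 6 or more in all 3 chemicals, also chosen after seeing the data, left 6, 7 and 15 calls lower in that order. Over the 73 members these were 12, 11 and 27, so they moved by more than 1.5 times, while the calls higher stayed within it. The replicate block, which pairs same-numbered cultures, gave 44, 47 and 45 calls and lost none. With it 23, 12 and 8 members were highest in DBMIB, Hexenal and tBOOH. Among named members it added calls for Hexenal against tBOOH in CHLRE_13g577300v5 and Hexenal against DBMIB in transcript 409157. The former reached the minimum level in DBMIB alone and the latter was under it in DBMIB, so nothing is read from these calls. With the control and NR arrays, 20 of 30 same-numbered pairs correlated above 0.1 (-0.11 to 0.27). Not run were normexp on mean signals and a slide block, as the sources used here give neither the mean signal nor the slide. Normexp reduced the largest differences, with DBMIB against tBOOH at 4.87 for CHLRE_13g577300v5. For DBMIB against tBOOH, 1 called member turned direction in the deposited values, with all spots and with normexp, and was not called in the turned direction. Members near background in NR or control bound what a small NR change could show.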
